A study of Mus musculus with 14 samples.

Results

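CHIR99021 withdrawal was followed in mouse embryonic stem cells (ESCs) that lack Trincr1, a long noncoding RNA that binds TRIM71. The knockout response was taken from 4 RNA-seq libraries of Trincr1-/- ESCs, 2 grown in 2i + LIF and 2 in PD + LIF, out of 14 samples in the series. In all, 15430 genes were tested, each with more than 0.2 FPKM on average in the 8 RNA-seq libraries of both genotypes, and the same change of medium in 4 wild-type libraries was set beside the knockout response. The 2i + LIF medium was N2B27 with 3.0 μM of the GSK3 inhibitor CHIR99021, 1.0 μM of the MEK inhibitor PD0325901 and 1000 units per ml of leukemia inhibitory factor (LIF). The PD + LIF cells spent the first 24 h in 2i + LIF and the next 4 days in N2B27 with the same doses of PD0325901 and LIF but no CHIR99021. PD0325901 and LIF were thus present in all 4 groups. All cells came from a cross of C57BL/6(F) with 129/sv(M), and the knockout cells carry a deletion of exons 2 to 4 of Trincr1 made with a pair of CRISPR guide RNAs. Which knockout line was sequenced, and whether the 2 libraries of a group came from separate cultures, are not stated in the sources used here, so p-values measure only the spread between libraries. Time since plating may also differ between the media and cannot be told apart from the loss of CHIR99021.

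CHIR99021 blocks GSK3, the kinase that marks beta-catenin for destruction. With GSK3 blocked, beta-catenin accumulates, binds TCF/LEF factors and switches on Wnt target genes, and it relieves the repression of the naive pluripotency network by TCF7L1. PD0325901 blocks MEK, the kinase above ERK, and LIF acts through STAT3. ESCs kept without CHIR99021 therefore lose a support of the naive state, the state that corresponds to the epiblast of the blastocyst, and can move toward the formative state of the early postimplantation epiblast.

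Each value is a normalized FPKM as deposited, and each change is a difference of mean log2(FPKM + 1), PD + LIF minus 2i + LIF, which understates the change of genes with low values. The 95% intervals are per gene and not adjusted for the number of genes. The libraries were estimated to hold 10300000 to 14100000 fragments from the steps between their low FPKM values, and FPKM sums ranged from 497115 to 519651. The 2 libraries of each group correlated at 0.989 to 0.991 across genes, and no 2 libraries were identical. The targeted gene, listed as Gm2694 (chr8:87472811-87525554 in the deposited coordinates, which follow GRCm38; a lincRNA), stood at 5.71 and 9.45 FPKM in wild type in 2i + LIF and 6.18 and 6.56 FPKM in PD + LIF. In Trincr1-/- ESCs it was at 0.0754 and 0 FPKM in 2i + LIF and at 1.38 and 0.746 FPKM in PD + LIF. All 4 knockout libraries lay below all 4 wild-type libraries, and its rise in the knockout (0.98 on the log2 scale, adjusted p = 0.011) lost its call without the second library in 2i + LIF (0.92) or the first in PD + LIF (0.75). It overlaps other lincRNAs, and reads of overlapping genes cannot be told apart without strand. Trim71 itself was at 34.7 and 33.6 FPKM in the knockout in 2i + LIF and 37.3 and 37.7 FPKM in PD + LIF, a change of 0.13 that did not pass the test (adjusted p = 0.076).

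Withdrawal of CHIR99021 changed 50.0% of the genes tested in Trincr1-/- ESCs. Of the 15430 genes, 4572 rose (29.6%) and 3136 fell (20.3%) at an adjusted p under 0.05 in limma. A change beyond 1 on the log2 scale was called for 1350 genes that rose and 537 that fell. In wild-type ESCs 52.2% of genes changed, 4765 higher (30.9%) and 3283 lower (21.3%). Both genotypes called 6058 genes in the same direction, which is 78.6% of the knockout calls and 75.3% of the wild-type calls, and 71 genes in opposite directions. Across genes the changes of both genotypes correlated at r = 0.849, a description over 15430 genes that are not independent replicates. Their SD across genes was 0.72 in the knockout and 0.68 in wild type, and their medians were 0.07 and 0.08. With libraries scaled to the same median, the median knockout change shifted by -0.10 and the calls split into 3688 higher and 4261 lower, and with quantile normalization they split into 3578 and 3838. The excess of rises over falls beyond 1 on the log2 scale was kept under both scalings, at 1171 against 658 and at 988 against 755. In bulk RNA, fewer cells of a type and less RNA per cell cannot be told apart.

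**Figure D1:**
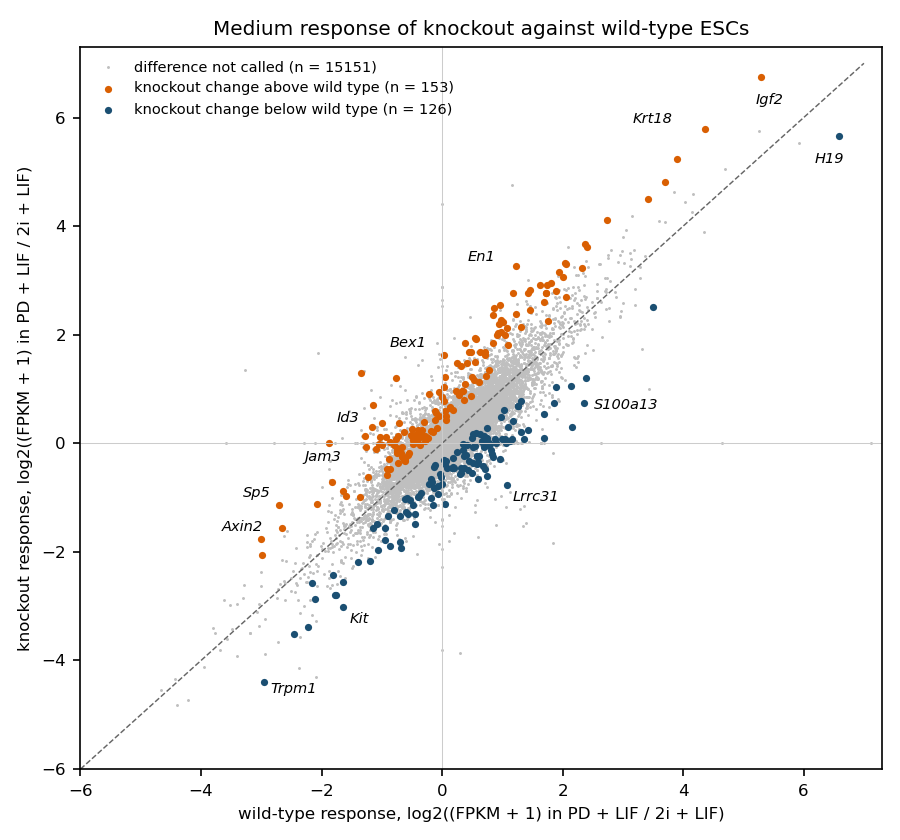
Each point is 1 of the 15430 genes tested, with the wild-type change on the x axis and the knockout change on the y axis, both as log2 of (FPKM + 1) in PD + LIF over 2i + LIF, and the dashed line marks equal changes. Most genes lie along the line, 153 genes with a knockout change above that of wild type are orange, and 126 below it are dark blue.

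The 10 largest rises in the knockout included those of the imprinted genes Igf2, H19 and Cdkn1c and of the keratin genes Krt18 and Krt19. Igf2, the imprinted gene of insulin-like growth factor 2, was at 0.774 and 0.791 FPKM in 2i + LIF and 202 and 180.5 FPKM in PD + LIF, a rise of 6.75 on the log2 scale (95% interval 6.46 to 7.05, adjusted p = 6.6e-07). In wild type it went from 0.616 and 0.402 to 52 and 65.2 FPKM, a rise of 5.30. The groups do not overlap, and both knockout libraries in PD + LIF lie above both wild-type libraries.

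H19, the imprinted lincRNA next to Igf2, showed the opposite order between genotypes. It rose from 0.388 and 0.298 to 68.5 and 66 FPKM in the knockout and from 0.291 and 0.0504 to 104 and 118 FPKM in wild type, by 5.67 and 6.59 on the log2 scale. Cdkn1c, an imprinted inhibitor of cyclin-dependent kinases, rose from 1.6 and 2.08 to 72.1 and 85.1 FPKM in the knockout (4.81) and from 2.11 and 2.02 to 42.7 and 34.9 FPKM in wild type (3.69). Igf2 and Cdkn1c thus rose more, and H19 less, in the knockout, with differences of 1.45, 1.12 and -0.92 (adjusted p = 0.026, 0.04 and 0.048). None of these 3 differences was called once any 1 of the 8 libraries was left out.

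Krt18, a keratin of simple epithelia, went from 1.11 and 1.07 FPKM to 119 and 111 FPKM in the knockout, a rise of 5.80, and from 1.81 and 2.44 FPKM to 60.6 and 65.9 FPKM in wild type. Krt19, another simple epithelial keratin, rose by 5.23, from 0.301 and 0.215 FPKM to 45.6 and 47.1 FPKM. Both keratins ended higher in the knockout libraries than in either wild-type library in PD + LIF. Tagln, the actin-binding protein transgelin of smooth muscle and other contractile cells, rose from 0.179 and 0.142 to 66.5 and 57 FPKM (5.75), while its wild-type libraries reached 40 and 61.4 FPKM. Rhox6, a homeobox gene of the X-linked Rhox cluster, rose by 4.63 to 43.2 and 52.2 FPKM. Car4, a membrane-bound carbonic anhydrase, was listed at 0 in all 4 libraries in 2i + LIF and at 30.5 and 34 FPKM in knockout and 23.8 and 26 FPKM in wild type in PD + LIF. The pseudogene Gm7079 was also listed at 0 in 2i + LIF and at 64.6 and 31.8 FPKM in the knockout in PD + LIF. Reads of a pseudogene may belong to its parent gene.

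Ece1, which encodes endothelin-converting enzyme, stood apart. It rose from 2.7 and 3.09 FPKM to 105 and 103 FPKM in the knockout, by 4.75 (adjusted p = 0.0095), whereas the wild-type libraries in 2i + LIF disagreed at 91.9 and 4.31 FPKM. The wild-type change of 1.17 did not pass the test (adjusted p = 0.41). The knockout call was lost without the first knockout library in 2i + LIF (4.68) or without either in PD + LIF (4.74 and 4.77). It was the only one of the 10 rises whose call was lost in a fit without 1 library.

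The 10 largest falls in the knockout were led by Gpx2, Crxos and Etv4. Gpx2, a glutathione peroxidase described in epithelia and induced by Wnt signalling, fell from 64.6 and 69.1 to 1.6 and 1.23 FPKM in the knockout (-4.81 on the log2 scale, adjusted p = 2.2e-06) and from 95.6 and 89.7 to 4.2 and 2.8 FPKM in wild type. Crxos, a homeobox gene expressed in ESCs, fell by 4.73, from 80.8 and 72.2 FPKM to 2.16 and 1.68 FPKM. Etv4, a PEA3 family ETS factor that responds to FGF/ERK signalling, fell from 52.1 and 45.8 to 0.797 and 1.52 FPKM, by 4.55 against 4.66 in wild type. Cdx1, a caudal homeobox gene and direct Wnt target, fell from 15.6 and 18.3 to 0.0554 and 0 FPKM. All 4 also fell in wild type, and none of the differences was called, with an interval of -0.91 to 0.07 for Gpx2, -0.86 to -0.19 for Crxos, -0.41 to 0.63 for Etv4 and -0.66 to 0.33 for Cdx1.

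Trpm1, a cation channel of the melastatin family, fell further in the knockout. It went from 23.1 and 28 to 0.0877 and 0.443 FPKM there and from 13.6 and 11.5 to 0.807 and 0.667 FPKM in wild type, a difference of -1.44 (adjusted p = 0.038), and in 2i + LIF both knockout libraries lay above both wild-type libraries. Pglyrp1, a peptidoglycan recognition protein, fell by 4.34 to 0.919 and 0 FPKM, Gm7325, listed here under a predicted gene symbol, by 3.91 to 1.34 and 0.762 FPKM, and Ubd, a ubiquitin-like modifier, by 3.87 to 0.238 and 0 FPKM. Mylpf, a myosin light chain of fast skeletal muscle, fell by 4.14, although its knockout libraries in 2i + LIF were as far apart as 156 and 338 FPKM. The small RNA Gm27406, which lies inside Pcbp2, was at 17.6 and 20.2 FPKM in the knockout in 2i + LIF and 0 in PD + LIF, while the wild-type libraries in 2i + LIF stood at 17 and 0 FPKM. Its knockout call was lost without any 1 of the 4 knockout libraries (-4.40 to -4.22).

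**Figure D2:**
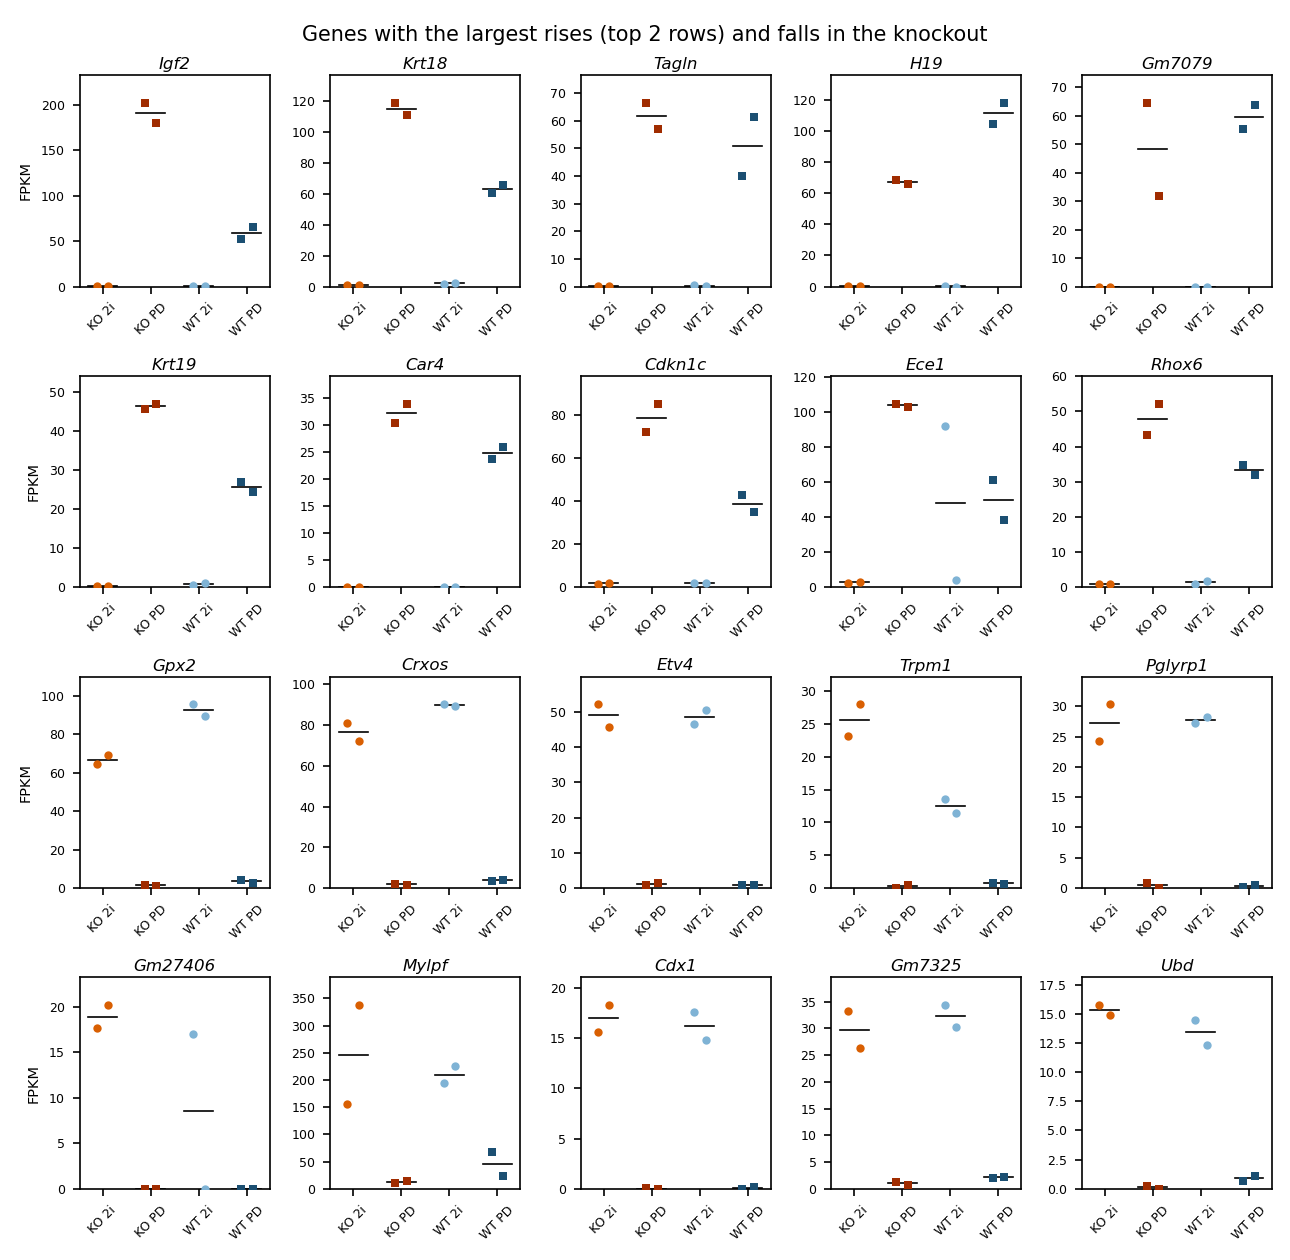
FPKM on linear axes from 0 of the 10 genes with the largest rises and the 10 with the largest falls in the knockout, with each library as a point and the group mean as a line (KO, Trincr1-/-; WT, wild type; 2i, 2i + LIF; PD, PD + LIF). Igf2 reached 202 and 180.5 FPKM in the knockout and 52 and 65.2 FPKM in wild type, and 1 wild-type library of Ece1 in 2i + LIF stood at 91.9 FPKM.

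Wnt/beta-catenin targets are the genes closest to the withdrawn inhibitor. Members of this and the other lists were chosen with earlier results of these data known. A share of a list set beside that of all genes is thus a description and not a test. As a reference for every list, 29.6% of all genes rose and 20.3% fell in the knockout, beside 30.9% and 21.3% in wild type. Of 18 targets listed, 16 were tested, and in the knockout 11 fell and 3 rose, beside 10 and 2 in wild type. The median change was -0.57 in the knockout and -0.55 in wild type, beside 0.07 and 0.08 over all genes. Axin2, a scaffold of the beta-catenin destruction complex and a negative feedback target, went from 28.3 and 33 FPKM to 8.51 and 11 FPKM in the knockout and from 23.3 and 23.2 FPKM to 3.12 and 2.6 FPKM in wild type. Both knockout libraries lie above both wild-type libraries in PD + LIF, and also in 2i + LIF. The Axin2 fall of 1.56 in the knockout was smaller than that of 2.65 in wild type (difference 1.09, 95% interval 0.65 to 1.53, adjusted p = 0.041 in limma). Sp5, a zinc finger factor that is a direct beta-catenin target, went from 20.8 and 22.2 FPKM to 10 and 8.43 FPKM in the knockout and from 18.8 and 14.2 FPKM to 1.51 and 1.8 FPKM in wild type. Its knockout fall of 1.14 and wild-type fall of 2.71 differed by 1.56 (95% interval 1.08 to 2.04, adjusted p = 0.027). Both genes were thus called as falling less in the knockout, while 2 other targets, Cdx2 and Tcf7, were called with a difference in the other direction. Of all genes, 0.992% had a difference above and 0.817% one below. The Axin2 difference was called in none of the fits without 1 library, and that of Sp5 in 1 of 8.

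The promoter sequences of the targets were searched for CTTTGAT, the core letters that TCF/LEF factors bind, on both strands. RefSeq promoters (250 bases before to 50 bases after a start, GRCm38.p6) were on hand for 12 of the targets, with 20 promoters in all. Of the 20, 2 held the letters (10%), beside 3.73% of all 32851 promoters. Both are printed 5′ to 3′ on the strand of the gene, with the match or its reverse complement in capitals, since they belong to a target whose fall was smaller in the knockout and to one whose difference was not called.
Sp5, chr2:70474673-70474972, plus strand: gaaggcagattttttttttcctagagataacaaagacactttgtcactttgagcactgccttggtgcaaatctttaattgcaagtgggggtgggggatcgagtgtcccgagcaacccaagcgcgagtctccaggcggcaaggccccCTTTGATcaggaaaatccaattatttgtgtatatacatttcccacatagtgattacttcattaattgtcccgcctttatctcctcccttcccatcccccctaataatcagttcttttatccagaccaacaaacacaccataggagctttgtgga
Tnfrsf19, chr14:61037938-61038237, minus strand: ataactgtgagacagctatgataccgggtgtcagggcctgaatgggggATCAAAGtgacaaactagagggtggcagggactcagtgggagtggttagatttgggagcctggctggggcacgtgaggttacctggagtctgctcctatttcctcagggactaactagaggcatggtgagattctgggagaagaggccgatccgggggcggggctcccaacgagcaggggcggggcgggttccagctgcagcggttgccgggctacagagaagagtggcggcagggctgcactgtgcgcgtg
The Axin2 and Cdx2 windows on hand did not hold these letters. A match in such a window is a description of the letters and not of binding.

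Tnfrsf19, a TNF receptor family member, was at 7.55 and 8.27 FPKM in the knockout in 2i + LIF and 6.43 and 5.82 FPKM in PD + LIF, beside 4.38 and 4.48 FPKM in 2i + LIF and 2.33 and 2.36 FPKM in PD + LIF in wild type. Its fall of 0.32 in the knockout lost its call without the second library of either knockout group (-0.26 in both cases). Notum, a secreted enzyme that inactivates Wnt proteins, fell from 40.4 and 37.8 to 5.68 and 5.77 FPKM, by 2.58 against 2.60 in wild type, and the interval of the difference was -0.38 to 0.43. T, the mesoderm factor Brachyury, fell by 1.20 to 0.495 and 0.326 FPKM, and Ccnd1, cyclin D1, fell from 62 and 61.7 to 31.7 and 30.9 FPKM. Apcdd1, a Wnt antagonist of the membrane, fell by 0.70. Znrf3, a ubiquitin ligase that removes Wnt receptors, was at 5.8 and 5.02 FPKM in 2i + LIF and 3.6 and 3.82 FPKM in PD + LIF, and its fall of 0.44 lost its call without the first library of either knockout group (-0.35 and -0.41).

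Cdx2, a caudal factor of trophectoderm and posterior embryo, fell from a higher start in the knockout. It was at 2.6 and 3.43 FPKM in 2i + LIF and 0.166 and 0.109 FPKM in PD + LIF, whereas wild type went from 0.727 and 0.766 to 0.104 and 0.0416 FPKM, a difference of -1.11 (adjusted p = 0.043). Tcf7, the TCF1 factor, fell in the knockout from 21.8 and 24.2 to 17.2 and 16 FPKM and was at 22.9 and 20.3 FPKM in 2i + LIF and 24.8 and 24.7 FPKM in PD + LIF in wild type (difference -0.64, adjusted p = 0.047). Neither the Cdx2 nor the Tcf7 difference was called with a pseudocount of 0.1 FPKM or without the variance trend. With replicate number as a block, no difference of a Wnt target was called in either direction. The 3 targets that rose in the knockout were Nkd1, Sp8 and Lef1. Nkd1, a feedback antagonist that binds Dishevelled, rose from 0.439 and 0.309 to 4.25 and 3.54 FPKM in the knockout and from 0.361 and 0.382 to 1.33 and 1.64 FPKM in wild type, and the difference of 0.97 did not pass the test (adjusted p = 0.056). Sp8, a relative of Sp5, rose from 0.403 and 0.457 to 1.99 and 1.61 FPKM in the knockout and was at 0.464 and 0.424 FPKM in 2i + LIF and 0.65 and 0.598 FPKM in PD + LIF in wild type (difference 0.80, adjusted p = 0.071). Lef1, a TCF/LEF factor, went from 3.67 and 3.6 to 7.12 and 4.85 FPKM, and its call was lost without either knockout library in 2i + LIF (0.58 and 0.56) or the first in PD + LIF (0.34). Rnf43, a relative of Znrf3, and the secreted antagonist Dkk1 stayed under 1.1 FPKM in all 8 libraries and were not called.

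Among 29 receptors, destruction complex members and TCF factors tested, 15 rose and 4 fell in the knockout, beside 14 and 4 in wild type, and none was called as different between genotypes in limma at an adjusted p under 0.05, while 8 had an unadjusted p under 0.05. The receptor genes moved in both directions. Fzd2 rose from 2.73 and 3.31 to 29.4 and 27.3 FPKM and Fzd7 from 5.93 and 5.94 to 24 and 21.8 FPKM, while Fzd5 fell to 12.4 and 11.2 FPKM and Fzd10 to 6.19 and 5.72 FPKM. The co-receptor gene Lrp5 rose by 0.71. Ctnnb1, the gene of beta-catenin, rose from 179 and 199.9 to 267 and 278 FPKM, by 0.52 in the knockout and 0.65 in wild type.

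**Figure D3:**
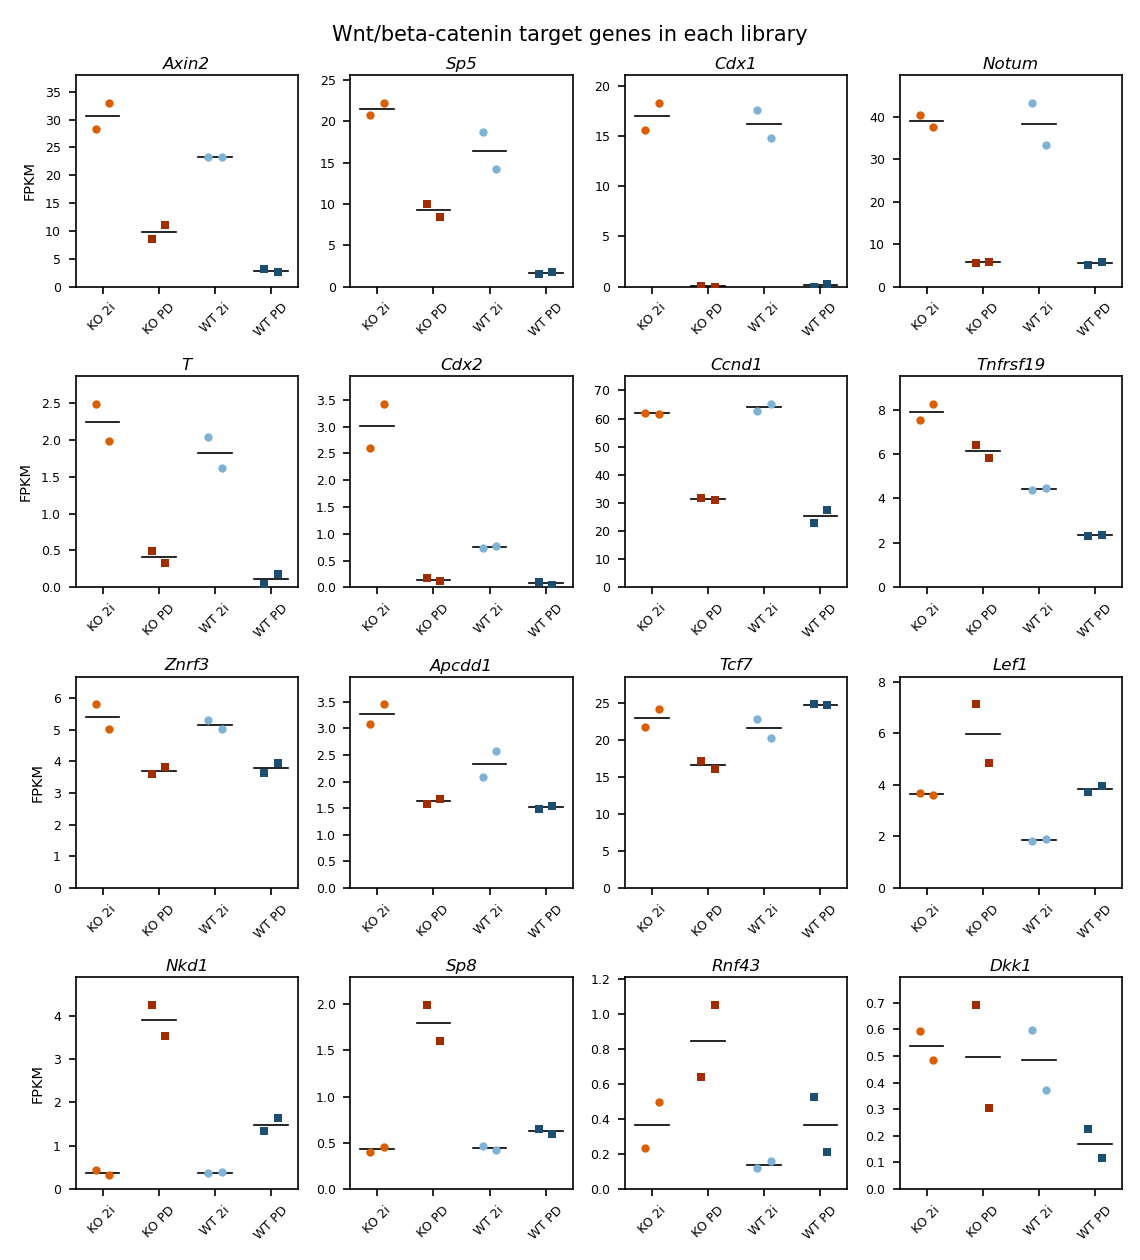
FPKM on linear axes from 0 of the 16 Wnt/beta-catenin targets tested, with each library as a point and the group mean as a line (KO, Trincr1-/-; WT, wild type; 2i, 2i + LIF; PD, PD + LIF). Axin2 and Sp5 stayed at 8.51 and 11 FPKM and 10 and 8.43 FPKM in the knockout in PD + LIF, above 3.12 and 2.6 FPKM and 1.51 and 1.8 FPKM in wild type, while Notum ended at 5.68 and 5.77 FPKM in the knockout and 5.11 and 5.81 FPKM in wild type.

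Factors of the naive state fell together in the knockout. Of 19 genes, 18 fell and 1 rose in Trincr1-/- ESCs, beside 14 and 2 in wild type, with medians of -1.18 and -0.83. Of all genes, 20.3% fell in the knockout and 21.3% in wild type. For 3 of the 19 the knockout change was called as below that of wild type, beside 0.817% of all genes. Tfcp2l1, a CP2 family factor downstream of LIF and Wnt signalling, fell from 109.8 and 102 to 13.1 and 14.3 FPKM in the knockout and from 104 and 101 to 24.2 and 21.5 FPKM in wild type. Esrrb, an orphan nuclear receptor that TCF7L1 represses, fell from 175 and 178 to 68.5 and 77.8 FPKM in the knockout and from 164 and 167 to 109 and 109 FPKM in wild type. The knockout falls of both genes were larger than the wild-type falls, by -0.75 and -0.67 (adjusted p = 0.028 and 0.027), with start levels in 2i + LIF that were close. Neither difference was called in a limma fit without the variance trend.

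Nanog, a homeobox factor of the naive network, went from 329 and 323 to 151 and 169 FPKM in the knockout, and wild type ended at 236 and 209 FPKM. The difference of -0.41 had an adjusted p of 0.091 and did not pass. Tbx3, a T-box factor, fell by 2.57 to 4.4 and 4.64 FPKM, and Klf4, a Krüppel-like factor under STAT3, fell by 1.18 to 38.3 and 30.2 FPKM. Tcl1, a coactivator of AKT, fell from 49 and 45.9 to 18.3 and 22.4 FPKM in the knockout and was at 50 and 50.4 FPKM in 2i + LIF and 48.1 and 37.7 FPKM in PD + LIF in wild type, and the difference of -0.96 missed the threshold (adjusted p = 0.051). Fgf4, the autocrine ligand of the FGF/ERK pathway, fell by 0.25 to 54.6 and 58.9 FPKM in the knockout and was at 82.8 and 81.3 FPKM in wild type in PD + LIF.

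Dppa3, the gene of the maternal factor Stella, was the 1 naive gene that rose in the knockout. It rose from 39 and 44.2 to 82 and 93.9 FPKM there and from 44.1 and 34.3 to 185 and 165 FPKM in wild type, so its rise was smaller by 1.08 (adjusted p = 0.04). Without the variance trend in limma this difference was not called. Of 11 core pluripotency genes, 6 fell and 3 rose in the knockout, and none was called as different in limma, with 5 at an unadjusted p under 0.05. Pou5f1, the gene of OCT4, fell from 684 and 726 to 373 and 354 FPKM, by 0.95 against 0.76 in wild type. Sox2 was at 157 and 150.4 FPKM in 2i + LIF and 138 and 155 FPKM in PD + LIF. The summed level of 12 ESC markers was 2133 and 2137 FPKM in knockout 2i + LIF and 1329 and 1323 FPKM in knockout PD + LIF, beside 1517 and 1525 FPKM in wild-type PD + LIF.

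Genes of the formative and primed epiblast rose. Of 22 tested, 17 rose and 3 fell in each genotype, with a median of 1.60 in the knockout and 0.96 in wild type. Of all genes, 29.6% rose in the knockout and 30.9% in wild type. In this list 3 genes were called as rising more in the knockout, beside 0.992% of all genes with a difference in that direction. Otx2, the factor that marks exit from the naive state, rose from 2.08 and 1.92 to 51.4 and 49.6 FPKM in the knockout and from 3.15 and 1.98 to 40 and 43.7 FPKM in wild type. Fgf5, an early marker of the postimplantation epiblast, was listed at 0 in both knockout libraries in 2i + LIF and at 1.93 and 1.99 FPKM in PD + LIF. Pou3f1, the factor OCT6, rose by 2.00 to 5.8 and 4.75 FPKM.

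Sox4, a SoxC factor, rose from 1.22 and 1.23 to 17.6 and 14.9 FPKM in the knockout and from 2.4 and 2.02 to 10 and 10.4 FPKM in wild type (difference 1.14, adjusted p = 0.028). Fgf15, an endocrine-type FGF ligand, reached 7.43 and 6.42 FPKM in the knockout and 2.5 and 3.08 FPKM in wild type (difference 1.17, adjusted p = 0.038). Dnmt3b, a de novo DNA methyltransferase, rose from 40.2 and 41.5 to 137 and 122 FPKM in the knockout and from 44.2 and 43.2 to 65.3 and 79.4 FPKM in wild type (difference 0.93, adjusted p = 0.028). In these 3 genes both knockout libraries in PD + LIF lie above both wild-type libraries, and each difference was called in at most 1 of the 8 fits without 1 library. Among the 3 that fell, Nkx1-2, a homeobox gene of the caudal epiblast, went from 14.7 and 12.9 FPKM to 0.0836 and 0.0244 FPKM, and Foxd3 from 14 and 11.7 FPKM to 3.87 and 3.86 FPKM.

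Enzymes of DNA methylation and demethylation were read beside them. Of 12 tested, 7 rose and 3 fell in the knockout, beside 7 and 2 in wild type, with medians of 0.99 and 0.62, and Dnmt3b alone was called as different. Dnmt3a, the other de novo methyltransferase, rose from 10.6 and 9.6 to 28.9 and 27.5 FPKM in the knockout, and Dnmt3l, their inactive partner, from 95.9 and 85.4 to 184 and 174 FPKM. Uhrf1, which brings the maintenance enzyme to replicated DNA, fell from 224 and 230.5 to 168 and 164 FPKM. Tet2, a dioxygenase that oxidizes methylcytosine, fell from 17.9 and 16.8 to 2.97 and 2.72 FPKM, by 2.25 in the knockout and 2.21 in wild type (interval of the difference -0.32 to 0.23), while its relative Tet3 rose to 4.15 and 3.75 FPKM.

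Of 14 neural lineage genes tested, 11 rose and 2 fell in the knockout, beside 8 and 1 in wild type, with medians of 1.04 and 1.14. In this list 4 genes were called as rising more in the knockout, beside 0.992% of all genes with a difference in that direction. The list was chosen with earlier results of these data known, so its share is a description and not a test. With a pseudocount of 0.1 FPKM or with replicate number as a block, no difference of this list was called. None of the 4 differences was called in a fit without 1 library. En1, an engrailed homeobox gene of the midbrain and hindbrain, went from 0.374 and 0.121 FPKM to 11.9 and 9.97 FPKM in the knockout and from 0.171 and 0.137 FPKM to 1.36 and 2.08 FPKM in wild type (difference 2.04, 95% interval 1.45 to 2.63, adjusted p = 0.026). Sox1, a marker of early neuroectoderm, reached 9.97 and 8.56 FPKM in the knockout and 4.62 and 5.12 FPKM in wild type. Irx3, an Iroquois factor, reached 11.4 and 12.1 FPKM in the knockout and 4.93 and 4.46 FPKM in wild type, and Ptn, the growth factor pleiotrophin, 10.3 and 8.06 FPKM in the knockout and 1.97 and 2.03 FPKM in wild type. In all 4 genes the knockout libraries in PD + LIF lie above the wild-type libraries. Pax6, a paired box factor of neuroectoderm, rose to 12.1 and 14.3 FPKM in the knockout and 9.25 and 10.4 FPKM in wild type with no called difference (interval -0.35 to 0.75). Cyp26a1, an enzyme that degrades retinoic acid and the 1 gene of 14 primitive streak and mesendoderm genes called as different, was listed at 0 in 2i + LIF in both genotypes and at 3.6 and 2.69 FPKM in the knockout and 0.96 and 0.983 FPKM in wild type in PD + LIF.

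Genes of epithelial junctions and keratins were among the strongest rises, and here the genotypes differed in both directions. Of 23 tested, 16 rose and 2 fell in the knockout, beside 18 and 2 in wild type, with medians of 1.57 and 1.45. The knockout rise was called as larger for 5 genes, and 2 genes rose in wild type with no call in the knockout, beside 0.992% of all genes with a difference above and 0.817% with one below. Of the 5 positive differences 3 were called without the first wild-type library in 2i + LIF and 1 without the second, and none of the 7 was called without any other 1 library. Krt8, the partner of Krt18, went from 10.6 and 10.2 FPKM to 147 and 142 FPKM in the knockout and from 10.9 and 13.3 FPKM to 62 and 71.8 FPKM in wild type (difference 1.29, adjusted p = 0.021). The differences of Krt18 and Krt19 were 1.43 and 1.34 (adjusted p = 0.019 and 0.033). Lsr, a protein of tricellular junctions, and Cgn, the tight junction protein cingulin, started lower in the knockout, at 1.6 and 1.92 FPKM and 0.603 and 0.451 FPKM against 5.06 and 4.3 FPKM and 1.75 and 1.47 FPKM, and ended at 21.4 and 18.4 FPKM and 13.7 and 12.9 FPKM against 17.2 and 15.7 FPKM and 11.4 and 12.9 FPKM.

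Rab25, a Rab11 family GTPase of epithelia, was at 0.759 and 0.564 FPKM in 2i + LIF and 0.59 and 0.738 FPKM in PD + LIF in the knockout, while wild type rose from 2.06 and 1.82 to 5.43 and 4.89 FPKM (difference -1.06, adjusted p = 0.04). Cldn4, a claudin of tight junctions, was at 33.4 and 37.4 FPKM in 2i + LIF and 32 and 37.9 FPKM in PD + LIF in the knockout, and wild type rose from 58.1 and 56 to 100.4 and 93.8 FPKM (difference -0.78, adjusted p = 0.038). The 95% interval of the knockout change was -0.30 to 0.30 for Rab25 and -0.23 to 0.19 for Cldn4. Cdh1, E-cadherin, fell in the knockout from 138 and 150.4 to 112 and 116 FPKM. Epcam, an epithelial adhesion molecule, rose from 10.8 and 8.61 to 35.5 and 31.9 FPKM in the knockout and from 21.5 and 20.2 to 56 and 61.2 FPKM in wild type.

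Cytoskeletal genes of the smooth muscle type rose in both genotypes. Of 14 tested, 13 rose and 1 fell in each genotype, with medians of 1.90 and 1.95, and none was called as different in limma, with 3 at an unadjusted p under 0.05. Acta2, smooth muscle actin, rose from 0 and 0.0623 to 11.5 and 9.35 FPKM, Myl9, a myosin light chain, from 0.194 and 0.321 to 10.6 and 8.13 FPKM, and Tpm1, a tropomyosin, from 34.7 and 36.6 to 176 and 169.7 FPKM in the knockout. Of 8 markers of differentiated smooth muscle and heart, 4 passed the filter on low values, and 2 of these rose in each genotype while 1 fell in the knockout. The summed level of all 8 went from 14.7 and 13.8 to 29.2 and 26.5 FPKM in the knockout and from 12.6 and 10.8 to 29 and 31.7 FPKM in wild type. The heavy chains Myh11, Myh6 and Myh7 and the cofactor Myocd were under the filter.

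Among 18 collagen, laminin and other matrix genes tested, 12 rose and 3 fell in the knockout, beside 10 and 4 in wild type, with medians of 0.60 and 0.32. Of all genes, 29.6% rose and 20.3% fell in the knockout, and 0.992% had a difference above and 0.817% one below. Col4a1, a basement membrane collagen chain, rose from 1.26 and 1.2 to 15.4 and 13.7 FPKM in the knockout and from 1.42 and 1.75 to 8.72 and 8.45 FPKM in wild type (difference 0.90, adjusted p = 0.043). Col1a1, a fibrillar collagen chain, went from 0.0715 and 0.0682 FPKM to 1.95 and 1.82 FPKM in the knockout, against 0.144 and 0.115 FPKM in 2i + LIF and 0.373 and 0.446 FPKM in PD + LIF in wild type. Lamc1, a laminin chain, was at 88.1 and 89.8 FPKM in 2i + LIF and 94.5 and 94.9 FPKM in PD + LIF in the knockout and fell from 81.2 and 79.4 to 69.8 and 66.8 FPKM in wild type. Nid2, a linker of laminin and collagen networks, was at 77.9 and 83.3 FPKM in 2i + LIF and 72.9 and 74.4 FPKM in PD + LIF in the knockout and rose from 69.9 and 68.3 to 89 and 87.5 FPKM in wild type. Fn1, fibronectin, fell in the knockout from 199 and 210.5 to 121 and 122 FPKM and was at 185 and 171 FPKM in 2i + LIF and 186 and 173 FPKM in PD + LIF in wild type (difference -0.76, adjusted p = 0.019).

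Markers of cell types other than ESCs were counted beside these groups. Of 14 trophoblast markers, 11 were tested, and 8 rose and 2 fell in each genotype. The difference was called as positive for Hand1 and negative for Cdx2, beside 0.992% and 0.817% of all genes. The summed level of the trophoblast markers went from 29.5 and 33.0 FPKM to 100.4 and 114 FPKM in the knockout and to 111 and 94.2 FPKM in wild type. The defining genes Elf5, Prl3d1 and Tpbpa were under the filter, and Prl3d1 and Tpbpa were at 0 in all 8 libraries. Hand1, a factor of trophoblast and early mesoderm, was at 2.82 and 2.92 FPKM in the knockout and 0.465 and 0.481 FPKM in wild type in PD + LIF, with a difference of 1.36 (adjusted p = 0.023). The summed level of 13 endoderm markers, of which 6 were tested, was 2.12 and 1.58 FPKM in the knockout in 2i + LIF and 8.85 and 8.22 FPKM in PD + LIF, against 6.25 and 6.07 FPKM in wild type. Of the 6 tested, 5 rose and 0 fell in the knockout, beside 2 and 0 in wild type, with medians of 0.95 and 0.22. With quantile normalization 1 fell in the knockout. None of the 6 was called as different in limma, with 3 at an unadjusted p under 0.05. Among the 13, Gata6, Sox17 and Sox7 were under the filter and Afp and Ttr at 0 in every library. For 12 fibroblast markers, of which 4 were tested, the sums were 1.02 and 0.938 FPKM in 2i + LIF and 7.21 and 6.58 FPKM in PD + LIF in the knockout, against 4.47 and 4.93 FPKM in wild type, with Fap at 0 in every library. Of the 4 tested, 3 rose and 0 fell in the knockout, beside 2 and 0 in wild type. How much any minor cell type adds to the gene groups was not tested.

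Targets of the pathways that PD0325901 and LIF address were read next, since both agents stayed in the medium. Of 20 ERK target genes tested, 7 rose and 6 fell in the knockout and 6 rose and 9 fell in wild type. Of all genes, 29.6% rose and 20.3% fell in the knockout, beside 30.9% and 21.3% in wild type. None of the 20 was called as different in limma, with 8 at an unadjusted p under 0.05. Their median change was 0.13 in the knockout and -0.09 in wild type, and the knockout median was 0.000592 with libraries scaled to the same median and turned negative with quantile normalization (-0.04) and without the first knockout library in PD + LIF (-0.0019). Beside Etv4, the relative Etv5 fell from 107 and 106 to 51.7 and 52.5 FPKM in the knockout, Spry4, a feedback inhibitor, from 4.66 and 3.32 to 0.233 and 0.136 FPKM, and Dusp6, an ERK phosphatase, from 5.77 and 4.12 to 2.4 and 2.28 FPKM. Of 15 LIF/STAT3 targets tested, 4 rose and 9 fell in the knockout, beside 6 and 7 in wild type, and for 3 the knockout change was called as below that of wild type. Besides Tfcp2l1 these were the kinases Pim1 and Pim3. Over all genes 0.817% had a difference in that direction. None of the 3 was called in a limma fit without the variance trend or with replicate number as a block. Pim1 went from 46 and 51.5 FPKM to 30.3 and 36.1 FPKM in the knockout and from 49.9 and 47.4 FPKM to 62.5 and 58.8 FPKM in wild type (difference -0.86, adjusted p = 0.033). Pim3 went from 30.3 and 30 FPKM to 46.4 and 47.3 FPKM and from 28.6 and 30 FPKM to 59 and 63.3 FPKM (difference -0.42, adjusted p = 0.049). Socs3, the feedback inhibitor of LIF signalling, was at 32.7 and 34.7 FPKM in 2i + LIF and 32.8 and 34.2 FPKM in PD + LIF in the knockout and between 30.9 and 32.5 FPKM in wild type.

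Of 18 Nodal and BMP pathway genes, 9 rose and 3 fell in the knockout, beside 8 and 6 in wild type. In this list 2 were called with a knockout change above that of wild type, beside 0.992% of all genes. Both encode inhibitors of DNA binding, known targets of BMP. Id3 was at 20.5 and 17.6 FPKM in 2i + LIF and 24.8 and 22.4 FPKM in PD + LIF in the knockout, whereas in wild type it fell from 18.4 and 22 to 8.75 and 8.22 FPKM (difference 1.46, adjusted p = 0.02). Id2 rose from 1.01 and 0.37 to 8.8 and 8.59 FPKM in the knockout and from 2.04 and 1.81 to 4.06 and 5.41 FPKM in wild type (difference 1.58, adjusted p = 0.046). Only 1 difference of this list was called in a limma fit without the variance trend, and only 1 with replicate number as a block. Id1 reached 21.8 and 21.3 FPKM in the knockout and 8.11 and 12.1 FPKM in wild type, and its difference of 0.63 did not pass (adjusted p = 0.22). The ligand genes Nodal and Bmp4 fell in the knockout to 8.23 and 6.91 FPKM and 3.79 and 3.06 FPKM, and Lefty1, a Nodal antagonist, rose from 14.9 and 19 to 42 and 44.8 FPKM.

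Of 18 FOXO targets, 10 rose and 4 fell in the knockout, beside 13 and 0 in wild type, with medians of 0.53 and 1.03. In wild type 1 of them was lower at an unadjusted p under 0.05 in limma, and 1 fell under scaling to the same median and with quantile normalization. The falls in the knockout were 2 without its first library in 2i + LIF and 1 without its second, and 1 without its first library in PD + LIF, and 2 with quantile normalization. Pdk4, a kinase that shuts off pyruvate dehydrogenase, was at 1.37 and 0.894 FPKM in 2i + LIF and 1.17 and 1.3 FPKM in PD + LIF in the knockout and rose from 0.657 and 0.856 to 3.37 and 3.67 FPKM in wild type (difference -1.29, adjusted p = 0.037). Cited2, a CBP/p300-binding regulator, went the other way, from 10.5 and 10.7 FPKM to 55.1 and 52.4 FPKM in the knockout and from 13.8 and 12.8 FPKM to 27.9 and 27.7 FPKM in wild type (difference 1.22, adjusted p = 0.0061), and this difference was called in 7 of the 8 fits without 1 library. Txnip, an inhibitor of thioredoxin and glucose uptake, rose to 65 and 61.5 FPKM in the knockout and 103 and 127 FPKM in wild type (difference -0.70, adjusted p = 0.068). Bnip3, a mitophagy receptor that hypoxia induces, rose from 8.63 and 10.7 to 80.6 and 69.4 FPKM in the knockout.

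Cholesterol synthesis genes were called as rising in larger number in the knockout, a comparison of counts. Of 23 genes tested, 16 rose and 4 fell in the knockout, beside 5 and 6 in wild type, with medians of 0.34 and 0.05, and 6 were called with a knockout change above that of wild type. Over all genes 29.6% rose in the knockout and 30.9% in wild type, and 0.992% had a difference in that direction. Under scaling to the same median 11 rose and 4 fell in the knockout, and the wild-type median was -0.08, while without the second wild-type library in PD + LIF it was -0.00965. Msmo1, a sterol methyl oxidase, rose from 60.7 and 60.9 to 99.3 and 95.3 FPKM in the knockout and was at 75.8 and 75.4 FPKM in 2i + LIF and 79.5 and 87.2 FPKM in PD + LIF in wild type (difference 0.53, adjusted p = 0.028). Fdps, farnesyl diphosphate synthase, rose from 149 and 162 to 273 and 271 FPKM in the knockout and from 175 and 189 to 229 and 239.8 FPKM in wild type.

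Sqle, squalene epoxidase, rose in the knockout from 52.6 and 53.5 to 66.1 and 63.9 FPKM and was at 54.8 and 55.1 FPKM in 2i + LIF and 50.4 and 53.2 FPKM in PD + LIF in wild type. Idi1, an isomerase, went from 43 and 44.3 FPKM to 49.4 and 47.5 FPKM in the knockout, a rise of 0.15 that lost its call without any 1 knockout library (0.12 to 0.18), without either wild-type library in PD + LIF (0.15) and under scaling to the same median (0.01), and it fell from 50.1 and 48.1 to 36.5 and 36.3 FPKM in wild type. The differences of Fdps, Sqle and Idi1 were 0.44, 0.37 and 0.57 (adjusted p = 0.049, 0.044 and 0.024). Neither these 3 differences nor that of Msmo1 was called in a fit without 1 library. Hmgcs1, the synthase at the head of the pathway, rose from 94.6 and 87.3 to 189 and 181 FPKM in the knockout and to 129 and 146 FPKM in wild type, and Srebf2, the gene of the sterol-sensing factor SREBP2, rose to 83.2 and 84.5 FPKM in the knockout and 78.9 and 86.5 FPKM in wild type, neither with a called difference (intervals 0.20 to 0.68 and -0.12 to 0.22).

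Other metabolic groups were called in like numbers in both genotypes. Of 21 glycolysis and lactate genes, 13 rose and 1 fell in the knockout, beside 16 and 1 in wild type, with medians of 0.47 and 0.51. Under scaling to the same median, 3 fell in the knockout and 4 in wild type. Slc2a1, the glucose transporter GLUT1, rose from 82.1 and 84.8 to 412 and 396 FPKM in the knockout and from 80.8 and 74.8 to 253 and 277 FPKM in wild type (difference 0.51, adjusted p = 0.037). Slc16a3, a lactate exporter, rose from 14.6 and 13.6 to 124 and 104 FPKM in the knockout. Ldhb, the lactate dehydrogenase subunit of heart type, was at 270.3 and 333 FPKM in 2i + LIF and 315 and 382 FPKM in PD + LIF in the knockout and rose from 219 and 194 to 548 and 479.6 FPKM in wild type (difference -1.10, adjusted p = 0.038). Of 14 genes of serine, glycine and threonine metabolism, 9 fell and 1 rose in each genotype. Tdh, threonine dehydrogenase, which feeds one-carbon metabolism in mouse ESCs, fell from 377 and 388 to 66 and 60.5 FPKM in the knockout and from 359 and 371 to 81 and 81 FPKM in wild type (difference -0.42, adjusted p = 0.037). Gldc, glycine decarboxylase, was the 1 that rose, from 4.02 and 4.02 to 18.8 and 19.3 FPKM in the knockout and from 23.8 and 25.3 to 49.7 and 53.6 FPKM in wild type (difference 0.95, adjusted p = 0.019). The knockout libraries were the lower ones of Gldc in both media. Of 17 p53 targets tested, 12 rose and 0 fell in each genotype in limma, 0 also at an unadjusted p under 0.05, with medians of 0.70 and 0.71. Under scaling to the same median, 1 fell in the knockout and 2 in wild type.

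**Figure D4:**
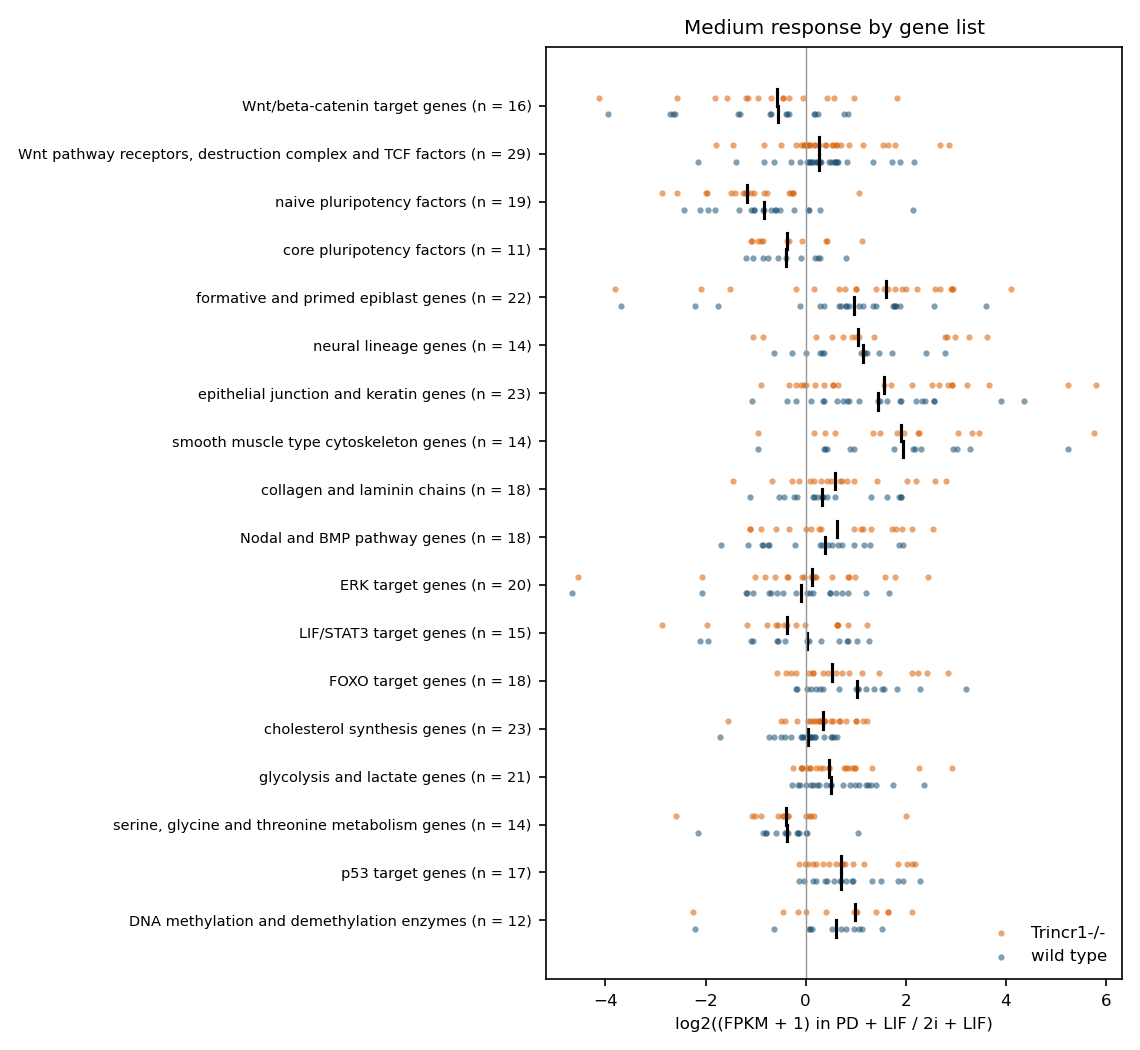
Each point is the change of 1 tested gene of a list, as log2 of (FPKM + 1) in PD + LIF over 2i + LIF, with knockout genes in orange above wild-type genes in blue and the black bar at the median. The naive list has medians of -1.18 and -0.83, the formative list 1.60 and 0.96, and the smooth muscle list 1.90 and 1.95.

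The difference of the medium response between genotypes was tested as an interaction. At an adjusted p under 0.05, 279 genes differed (1.81% of those tested), 153 with a knockout change above that of wild type (0.992%) and 126 below it (0.817%), and 2936 genes had an unadjusted p under 0.05. The median half-width of the 95% interval of a difference, not adjusted for the number of genes, was 0.40 on the log2 scale. With 2 libraries a group, smaller differences were mostly not detectable. Many larger ones were also not called, since an adjusted p under 0.05 asks for more than an interval without 0. This count fell to 28 and 3 without the first and second knockout libraries in 2i + LIF, to 13 and 23 without those in PD + LIF, to 34 and 26 without the wild-type libraries in 2i + LIF, and to 32 and 26 without those in PD + LIF. Leaving out a library leaves 1 in its group, which is then assumed to vary like the other groups. Each such fit also reuses the other libraries of the fit that picked these genes, so a kept sign is no separate evidence. Of the 279 genes, 240 were called in none of these 8 fits, and the sign of the difference was kept for all 279 in every one.

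By direction, 104 of the 279 genes were called in both genotypes with the larger change in the knockout, 66 as rises and 38 as falls. Another 43 were called in both with the smaller change in the knockout, 19 as rises and 24 as falls, and 36 in opposite directions, 14 of them higher and 22 lower in knockout PD + LIF. Calls in the knockout alone were made for 34 genes, 18 higher and 16 lower, and calls in wild type alone for 62, 31 higher and 31 lower. A call in 1 genotype alone is a count of tests and not a sign that the change was 0 in the other. The gap between genotype means was larger in PD + LIF than in 2i + LIF for 215 of the 279 genes and larger in 2i + LIF for 64. This count was not made over all genes tested, so it cannot be read as particular to the 279.

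The 10 largest positive differences held 4 pseudogenes, Gm9763, Gm8623, Gm9174 and AC098736.2, each under 4 FPKM in all 8 libraries. Gm9763 was listed at 0 in knockout 2i + LIF and wild-type PD + LIF and at 1.53 and 1.4 FPKM in knockout PD + LIF and 1.46 and 1.61 FPKM in wild-type 2i + LIF. H2-K1, a classical MHC class I gene, rose from 2.94 and 3.27 to 23.4 and 20.6 FPKM in the knockout and from 9.54 and 9.66 to 16.7 and 20.2 FPKM in wild type (difference 1.62, adjusted p = 0.018), and its reads may be shared with near-identical class I genes. Bex1, a brain-expressed X-linked gene, showed its gap in 2i + LIF. It was at 76.8 and 78.5 FPKM in the knockout against 217 and 233 FPKM in wild type in 2i + LIF, and at 255 and 231 FPKM against 213 and 247 FPKM in PD + LIF (difference 1.60, adjusted p = 0.0061). Cacna1g, a T-type calcium channel, reached 7.58 and 5.3 FPKM in the knockout and 1.75 and 1.2 FPKM in wild type (difference 1.60, adjusted p = 0.041). En1, Id2 and Sp5 completed the 10.

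Among the 10 largest negative differences, 8 genes rose in wild type. Lrrc31, a leucine-rich repeat protein, fell in the knockout from 12 and 12.1 to 6.72 and 6.67 FPKM and rose in wild type from 8.74 and 9.29 to 20 and 20.1 FPKM (difference -1.84, adjusted p = 0.0031). The groups do not overlap, and this difference and that of Gm9763 were the 2 called in all 8 fits without 1 library. S100a13, a calcium-binding protein of the S100 family, rose from 6.11 and 7.65 to 11.3 and 12.8 FPKM in the knockout and from 3.49 and 3.86 to 23.4 and 22.6 FPKM in wild type (difference -1.63, adjusted p = 0.019). C2, complement component 2, was at 1.69 and 1.09 FPKM in 2i + LIF and 1.71 and 1.4 FPKM in PD + LIF in the knockout and rose from 0.867 and 0.43 to 4.76 and 3.87 FPKM in wild type. Acss1, a mitochondrial acetyl-CoA synthetase, was at 8.24 and 9.95 FPKM in 2i + LIF and 6.67 and 7.81 FPKM in PD + LIF in the knockout and rose from 10.2 and 10.3 to 24.7 and 17.7 FPKM in wild type.

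Kit, the receptor of stem cell factor, fell in both genotypes and further in the knockout. It started at 52.3 and 58.7 FPKM in the knockout and 54.2 and 54.7 FPKM in wild type and ended at 6.06 and 5.9 FPKM in the knockout and 18.8 and 14.9 FPKM in wild type (difference -1.37, adjusted p = 0.02). Gm12942 went from 2.45 and 3.13 FPKM to 1.7 and 1.29 FPKM in the knockout and rose from 1.55 and 1.56 to 3.59 and 3.02 FPKM in wild type, and the pseudogenes Gm6269 and Gm12906 had differences of -1.86 and -1.25. Trpm1 and Pdk4 completed the 10. The knockout fall of Gm12942 (0.60) lost its call without the second library of either knockout group (-0.47 and -0.49).

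The 9 genes described next, chosen after their values were seen, were called in 5 or more of the 8 fits without 1 library. Besides Gm9763, Lrrc31, Bex1 and Cited2 these were Lima1, Mt1, Jam3, Hexa and Atp1b1. Lima1, an actin-binding LIM protein, went from 61.6 and 66.3 FPKM to 44.2 and 45.8 FPKM in the knockout and from 55.4 and 54.4 FPKM to 74.4 and 74 FPKM in wild type. Mt1, a metallothionein, fell from 1036 and 1059 to 433 and 417 FPKM in the knockout and from 1004 and 977 to 655 and 687 FPKM in wild type. Jam3, a junctional adhesion molecule, was at 7.71 and 8.27 FPKM in 2i + LIF and 8.26 and 9.38 FPKM in PD + LIF in the knockout and fell from 16.7 and 16.1 to 6.28 and 6.05 FPKM in wild type. Hexa, the alpha chain of lysosomal hexosaminidase, was at 34 and 31.6 FPKM in 2i + LIF and 35.2 and 34.5 FPKM in PD + LIF in the knockout and rose from 25.3 and 23.7 to 58.6 and 53.5 FPKM in wild type. Atp1b1, a sodium pump subunit, fell from 70.6 and 70.2 to 16.7 and 17.9 FPKM in the knockout and from 78.8 and 75.8 to 37.7 and 35.4 FPKM in wild type. The differences of these 5 genes were -0.93, -0.74, 1.41, -1.08 and -0.91, in the same order.

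**Figure D5:**
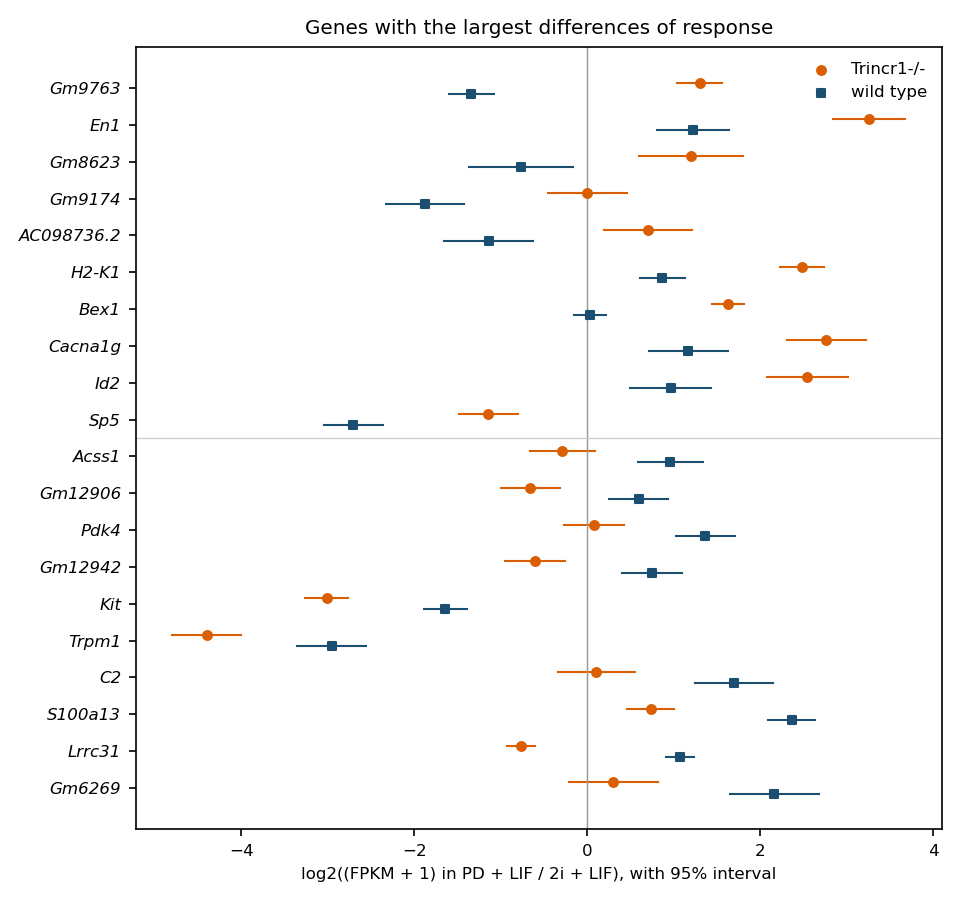
Changes from 2i + LIF to PD + LIF with their 95% intervals in the knockout (orange circles) and wild type (blue squares), as log2 of (FPKM + 1) in PD + LIF over 2i + LIF, for the 10 largest positive differences (top) and the 10 largest negative ones (bottom). Sp5 fell by 1.14 in the knockout and 2.71 in wild type, and Lrrc31 changed in opposite directions.

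RNA bound by FLAG-tagged TRIM71 in ESCs in 2i + LIF was set beside the genes that differed, with 1 deposited value each for pulldown and input and no error. Among 9420 genes tested here with an input above 2 FPKM, 473 had a pulldown over input above 3 (5.02%). Of the 279 genes that differed, 218 had such an input and 9 of these passed, or 4.13%. They were Kit, Hspa5, Cxadr, Aim2, Gas2l1, Creb3, Plec, Ifitm1 and Ahcyl2, with folds of 3.17 for Ahcyl2 to 7.61 for Kit, whose input value was 28.4 FPKM and whose pulldown value was 96.3 FPKM. The folds are ratios of the authors' scaled signal and are therefore not the ratios of these FPKM values. Hspa5, the endoplasmic reticulum chaperone BiP, was at 206 and 189.7 FPKM in 2i + LIF and 186 and 172 FPKM in PD + LIF in the knockout and fell from 217 and 217 to 127 and 132 FPKM in wild type. The share was 4.72% among 2734 genes that rose in the knockout and 4.05% among 2422 that fell. A value of 0 in the pulldown was listed for 4335 of the 9420 genes.

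By chromosome, the median knockout change lay between -0.0016 and 0.13 on the autosomes and chromosome X, and the median difference between genotypes between -0.0166 and 0.0294. For 15 mitochondrial genes the median change was -0.23 in the knockout and -0.23 in wild type.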

How the data were processed

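Poly(A) RNA of 8 mouse ESC libraries (2 per genotype and medium) was sequenced by the authors, aligned with STAR 2.5.0 and summarized with Cufflinks 2.2.1 (tools per the submitters' notes), and the authors deposited normalized FPKM per gene. The labels name mm9, but the gene coordinates in the table follow GRCm38. Strand is not stated, so antisense and overlapping genes cannot be told apart. Groups were taken from the sample labels.

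The table held 41260 entries for 41204 gene identifiers, and 27 symbols that a spreadsheet had altered were restored from their identifiers. All 15430 genes with a mean above 0.2 FPKM were fitted in limma 3.58.1 (R 4.3.3) on log2(FPKM + 1), as 4 group means with a variance trend, which left 4 residual degrees of freedom. P-values are two-sided and Benjamini-Hochberg adjusted over all genes tested, with a threshold of 0.05. Contrasts were the medium change in the knockout, the same in wild type, and their difference. Tables were handled in Python 3.11.15 (numpy 2.4.6, pandas 2.3.3), plots were drawn in matplotlib 3.10.9, and the fit was tested on simulated data.

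Genes named are the 10 largest rises and falls in the knockout (adjusted p under 0.05, a group mean of at least 1 FPKM, libraries not overlapping between media), the 10 largest differences in each direction (libraries of either genotype not overlapping between media), members of 25 pathway lists and 5 marker lists, and Gm2694. Members and lists were chosen with earlier results of these data known. Genes named for passing fits without 1 library, and those named for their pulldown, were chosen after their values were seen.

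For the TRIM71 pulldown the authors deposited 1 FPKM value for input and 1 for pulldown per gene, and a signal scaled by the authors to the mean of each dataset, whose ratio was taken as the fold. A column of the authors' own enrichment was not used. Other pulldown samples were not analysed here, and some members of the lists are counted but not reported here by name. Promoter sequences come from RefSeq (GRCm38.p6). Alternatives covered the pseudocount, the filter, scaling, the variance trend, the replicate block, each library left out, fits within a genotype and other thresholds.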

Additional observations from a re-analysis of the deposited data

Results flagged for a closer look

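The medium response of 279 genes differed between genotypes by the interaction test in limma, at an adjusted p under 0.05, and each gene named in the text that passed it is given here with its difference on the log2 scale, the knockout change minus the wild-type change. The 2 libraries of a group allow no check for a single library that stands apart.

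Among these genes, the knockout change lay furthest above that of wild type for Gm9763 (2.64), En1 (2.04), Gm8623 (1.96), Gm9174 (1.88), AC098736.2 (1.84), H2-K1 (1.62), Bex1 (1.60), Cacna1g (1.60), Id2 (1.58), Sp5 (1.56) and Id3 (1.46). It also lay above for Igf2 (1.45), Krt18 (1.43), Jam3 (1.41), Hand1 (1.36), Ptn (1.36), Krt19 (1.34), Lsr (1.30), Krt8 (1.29), Cited2 (1.22) and Irx3 (1.21). Smaller positive differences were those of Fgf15 (1.17), Sox4 (1.14), Cdkn1c (1.12), Col1a1 (1.11), Axin2 (1.09), Sox1 (1.06), Cyp26a1 (1.06), Gldc (0.95), Dnmt3b (0.93), Cgn (0.90), Col4a1 (0.90) and Gas2l1 (0.89). The smallest positive differences were those of Slc7a3 (0.76), Cxadr (0.75), Creb3 (0.73), Plec (0.63), Hspa5 (0.60), Idi1 (0.57), Msmo1 (0.53), Itga5 (0.52), Slc2a1 (0.51), Fdps (0.44), Sqle (0.37) and Lamc1 (0.32).

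Among these genes, it lay furthest below that of wild type for Gm6269 (-1.86), Lrrc31 (-1.84), S100a13 (-1.63), C2 (-1.59), Trpm1 (-1.44), Kit (-1.37), Gm12942 (-1.35), Pdk4 (-1.29), Acss1 (-1.25) and Gm12906 (-1.25). It also lay below for Cdx2 (-1.11), Ldhb (-1.10), Hexa (-1.08), Dppa3 (-1.08), Rab25 (-1.06), Lima1 (-0.93), H19 (-0.92), Atp1b1 (-0.91), Pim1 (-0.86), Ifitm1 (-0.85) and Cldn4 (-0.78). The smallest negative differences were those of Ahcyl2 (-0.77), Fn1 (-0.76), Tfcp2l1 (-0.75), Mt1 (-0.74), Esrrb (-0.67), Tcf7 (-0.64), Nid2 (-0.48), Aim2 (-0.44), Pim3 (-0.42), Tdh (-0.42), Amt (-0.42) and Asns (-0.40).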

How the results depend on the processing

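No call of a named gene in any of the 3 contrasts changed sign under the alternatives run, while some medians did. The median over all genes turned with both scalings and the knockout median of the ERK targets with quantile normalization. Under scaling to the same median, the wild-type medians of the LIF/STAT3, cholesterol, G1 and Trim71 lists also turned negative, as did the knockout median of the G1 list. The knockout response was called for 6136 to 7552 genes when 1 of the 8 libraries was left out and the wild-type response for 6473 to 7937, against 7708 and 8048. With a change beyond 1 on the log2 scale also required, these were 1887 and 1741. The difference between genotypes was less stable. It was called for 279 genes, for 3 to 34 with 1 library left out, for 138 with no filter on low values, for 88 with no variance trend and for 843 at an adjusted p under 0.1. The cause of these shifts was not tested. With the replicate block 39 differences were called (17 positive, 22 negative), all among the 279. The replicate numbers did not pair the samples, since same-numbered libraries deviated from their group means with correlations of -0.06 to 0.02. The block left 7386 knockout and 7768 wild-type calls. Among 78 named differences, 61 lost the call under at least 1 alternative other than a left-out library, and 17 kept it under all of those. Of 149 named genes called in the knockout, 11 lost the call in a fit without 1 library and 6 under another alternative. Of 78 named differences, 2 were called in all fits without 1 library. With 2 libraries a group, depth known only as an estimate and no separate cultures stated, differences under about 0.40 on the log2 scale were mostly not detectable. That value comes from intervals not adjusted for the number of genes, so a difference without a call may well be larger.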

Other observations

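Gene groups not described above were also read. Over all genes tested, 29.6% rose and 20.3% fell in the knockout, beside 30.9% and 21.3% in wild type. Of 10 mesenchymal genes tested, 6 rose and 2 fell in the knockout, beside 4 and 1 in wild type. Zeb2, a zinc finger repressor of E-cadherin, rose from 0.0225 and 0.132 to 3.94 and 3.93 FPKM in the knockout and from 0.0533 and 0.0669 to 1.31 and 2.17 FPKM in wild type, and Cdh2, N-cadherin, reached 5.54 and 5.32 FPKM against 2.05 and 2.6 FPKM (difference 1.01, adjusted p = 0.052 in limma). Itga5, the alpha subunit of the fibronectin receptor, rose from 8.39 and 8.56 to 19.7 and 19.6 FPKM in the knockout and from 8.94 and 8.75 to 14.1 and 13.8 FPKM in wild type, whereas the intermediate filament gene Vim fell to 150.3 and 132 FPKM in the knockout. Of 14 primitive streak genes tested, 5 rose and 5 fell in the knockout, and Eomes, a T-box factor of the streak, was among those that fell, from 1.88 and 2.06 to 0.812 and 0.953 FPKM.

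Of 17 ATF4 stress response genes, 8 fell and 5 rose in the knockout. Asns, asparagine synthetase, fell from 474 and 457 to 171 and 161 FPKM in the knockout and from 453 and 453 to 207 and 219.9 FPKM in wild type, and Slc7a3, a transporter of basic amino acids, fell from 56.8 and 52.4 to 32.3 and 26.2 FPKM in the knockout and from 66.2 and 71.8 to 21.6 and 21.1 FPKM in wild type. Their differences (-0.40 and 0.76) point in opposite directions. Ddit4, an inhibitor of mTORC1, rose from 10.6 and 11 to 98.6 and 94.5 FPKM in the knockout.

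Of 14 germline genes tested, 6 fell and 5 rose in the knockout. Fkbp6, a meiotic chaperone, fell from 7.65 and 5.38 to 0.65 and 0.571 FPKM in the knockout, and Ddx4, a germ cell helicase, rose from 1.52 and 0.962 to 4.55 and 4.3 FPKM. Of 17 two-cell-like state genes, 5 passed the filter, and 1 of these, Zscan4c, fell in the knockout, from 0.707 and 0.655 to 0.0816 and 0.0358 FPKM. With quantile normalization 4 of the 5 fell, and 4 of the 5 were lower at an unadjusted p under 0.05. Zscan4 genes are near-identical copies, so their values are uncertain. Of 17 G1 cell cycle genes, 5 rose and 5 fell in the knockout, shares near the 29.6% and 20.3% of all genes. Cdk6, a G1 kinase, fell from 5.23 and 5.36 to 1.58 and 1.12 FPKM, and Rb1, the retinoblastoma gene, rose from 0.968 and 1.18 to 4.21 and 5.31 FPKM. Of 13 genes of Trim71, Lin28 and the microRNA machinery tested, 4 rose and 2 fell in the knockout, again shares near those of all genes. Under scaling to the same median there were 4 falls. Lin28a and Lin28b, RNA-binding blockers of let-7 maturation, rose to 167 and 156 FPKM and 5.92 and 5.05 FPKM in the knockout and to 99 and 112 FPKM and 4.37 and 4.63 FPKM in wild type. No gene of this list, these 2 included, was called as different between genotypes in limma, with 7 of the list at an unadjusted p under 0.05.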
